A study of Mus musculus with 6 samples.

Results

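Macrophage, monocyte and pan-myeloid genes of the fetal lung were compared between R26Foxf1; Tie2-cre and control lungs, for a list of 42 genes. The list was drawn up with group differences of these same lungs already known, and every probe that the array annotation gives to a listed gene was taken. Of the 42 genes, 41 had a probe and Cd68 had none in the annotation, which left 69 of the 45281 probes on the array. The whole lungs of 3 R26Foxf1; Tie2-cre embryos (labelled ROSA26Foxf1:Tie2-cre) and 3 R26-LSL-Foxf1 embryos were sampled at embryonic day 18.5, and each total RNA was hybridized to 1 Illumina mouse whole-genome BeadChip array. Both groups carry a Foxf1 cDNA in the ROSA26 locus behind a lox-stop-lox cassette, which Tie2-cre removes in endothelial and hematopoietic lineages, so that macrophages themselves belong to the cells in which the transgene can be switched on. In the control lungs, labelled with no cre, the stop cassette stays in place. The labels call the lungs biological replicates, and the study calls the controls littermates, without saying which lungs share a litter.

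Macrophages reach the mouse lung in waves before birth, from yolk sac progenitors and from fetal liver monocytes, and the monocyte-derived cells mature into alveolar macrophages around birth. The transcription factor PU.1 (Spi1) and the CSF1 receptor (Csf1r) establish and maintain the lineage. Its cells take up particles and dying cells through Fc, scavenger and complement systems, and several of their surface receptors signal through the ITAM adaptors Tyrobp (DAP12) and Fcer1g.

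Signals are given on the log2 scale after background correction and quantile normalization, where 1 unit is a doubling. A probe was taken as detected on an array at a detection p under 0.01, which the dimmest detected probes reached at a log2 signal of 5.34 to 5.39. Probes detected on at least 3 of 6 arrays were tested with limma, and a difference was called at a Benjamini-Hochberg adjusted p under 0.05 over all tested probes and a fold change of at least 1.2. Each gene is given by its brightest tested probe, and levels of different probes are not compared with each other. Each lung had 19831 to 20043 detected probes. Of 20118 tested probes, 420 (2.09%) were lower and 488 (2.43%) were higher in R26Foxf1; Tie2-cre lungs, 4.51% in all. The share of calls that were higher was 53.7%, and 39.3% after cyclic loess normalization. Foxf1 itself did not pass (0.31 in log2 fold change, adjusted p = 0.285), although its probe was higher in every R26Foxf1; Tie2-cre lung than in any control lung, as were 18.5% of all tested genes. The study reports Foxf1 overexpression in E18.5 lungs by qRT-PCR and increased FOXF1 staining. Whether the array probe reads the ROSA26 cDNA was not checked. R26Foxf1; Tie2-cre replicate 3 was the 1 lung in which Xist was not detected on any of its probes. It was also the 1 lung with a detected probe of the Y-linked gene Eif2s3y (8.96, against 4.26 to 4.44 in the other lungs). By these genes it reads as male and the other lungs as female, so sex was not balanced between the groups.

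Of the 41 genes with a probe, 34 were tested, 28 of them detected on all 6 arrays. Csf1r, Adgre1, Mrc1, Cd14, Tyrobp, Fcer1g and the 3 C1q genes were detected in every lung. Itgam, Itgax, Itgb2, Ms4a6c, Msr1 and Ptprc were not detected on any array, although Ptprc had 4 probes, so the usual markers CD45 and CD11b were read by no detected probe here. The remaining gene, Cd163, was detected on 2 arrays and was not tested.

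Promoter sequences are shown first for 3 genes that fell and for C1qc, a member that did not pass the threshold, because all 4 hold a letter string of the kind bound by PU.1, whose sites are purine-rich with a GGAA core. RefSeq promoters of build GRCm38.p6 were matched by symbol for 31 of the 42 genes, and the 250 bases before each transcription start were searched on both strands for GAGGAAG, which reads CTTCCTC on the opposite strand, with no shift or mismatch. Capitals mark the match. The Slamf9 window is chr1:172475110-172475359 on the plus strand, with the match starting 8 bases before the start of transcription. The Fcgr1 window is chr3:96293970-96294219 on the minus strand, with the match starting 56 bases before the start. The Ly6c1 window, from 1 of its 2 promoters, is chr15:75048664-75048913 on the minus strand, with the match starting 127 bases before. The C1qc window is chr4:136892915-136893164 on the minus strand, with the match starting 194 bases before.
Slamf9: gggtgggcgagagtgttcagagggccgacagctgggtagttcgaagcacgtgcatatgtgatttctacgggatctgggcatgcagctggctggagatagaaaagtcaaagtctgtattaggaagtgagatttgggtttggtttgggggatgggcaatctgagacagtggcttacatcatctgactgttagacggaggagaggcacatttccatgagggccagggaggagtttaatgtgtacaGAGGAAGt
Fcgr1: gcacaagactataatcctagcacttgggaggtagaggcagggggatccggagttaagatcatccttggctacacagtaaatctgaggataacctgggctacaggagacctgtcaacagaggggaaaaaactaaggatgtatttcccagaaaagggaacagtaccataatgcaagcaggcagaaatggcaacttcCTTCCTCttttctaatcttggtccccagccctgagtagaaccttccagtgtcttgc
Ly6c1: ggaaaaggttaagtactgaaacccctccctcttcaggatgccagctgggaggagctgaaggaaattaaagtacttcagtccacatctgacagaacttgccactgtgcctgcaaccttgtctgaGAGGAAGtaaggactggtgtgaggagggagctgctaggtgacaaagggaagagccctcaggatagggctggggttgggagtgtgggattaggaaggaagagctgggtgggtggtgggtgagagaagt
C1qc: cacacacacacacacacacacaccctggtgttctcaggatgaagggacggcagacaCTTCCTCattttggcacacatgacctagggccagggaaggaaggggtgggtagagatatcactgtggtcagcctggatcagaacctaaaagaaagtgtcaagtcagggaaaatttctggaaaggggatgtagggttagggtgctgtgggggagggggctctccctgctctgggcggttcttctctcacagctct

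The string was present for 10 of the 31 member genes (32.3%), namely Fcgr1, Fcgr3, Ly6c1, Mrc1, C1qc, Laptm5, Itgam, Slamf9, Trem2 and Marco, and for 12% of all 27025 genes with a promoter in the table. It was absent from the windows of Il1b and Ms4a8a, which also fell, and Tyrobp and Itgal had no promoter in the table. GAGGAAG was chosen among 5 overlapping spellings with their counts known. The others were GAGGAA (54.8% of member genes and 25.9% of all genes), GAGGAAGT (9.68% and 2.79%), AGGAAGT (29.0% and 8.80%) and GGAAGT (45.2% and 22.2%). A match describes letters only, and binding was not measured.

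The members were mostly dimmer in the R26Foxf1; Tie2-cre lungs. By the brightest probe 7 of 34 member genes fell (20.6%), against 1.44% of all 11080 tested genes, and 0 rose, where 1.54% of all genes did. Before adjustment, at p under 0.05 and the same fold limit, 17 members were lower (8.57% of all genes) and 2 were higher (11.8% of all genes). In 18 of the 34 (52.9%) every R26Foxf1; Tie2-cre lung was below every control lung, as in 10.9% of all genes, and the reverse held for 2 members and for 18.5% of all genes. The mean was lower for 28 members (82.4%) and for 42.3% of all genes. The median log2 fold change was −0.36 over the members and 0.05 over all tested genes. Ms4a8a and Il1b, 2 of the 7, were detected in no R26Foxf1; Tie2-cre lung and passed the detection filter through the control lungs where they are high, so that a difference was built into their selection. Marco, not called but counted among the 17 and the 18, passed the filter in the same way. Among the 28 members detected on all 6 arrays 5 fell and 0 rose, with a median of −0.26, where 1.17% of all such genes fell and 1.49% rose. Of these 28, 12 were lower before adjustment and 13 had groups apart in that direction. The same held for 816 and 1096 of all 10329 such genes. As the genes were listed with such differences in view, these counts describe the list and support nothing beyond it. In whole-lung RNA, fewer cells of a type and less RNA per cell cannot be told apart.

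**Figure D1:**
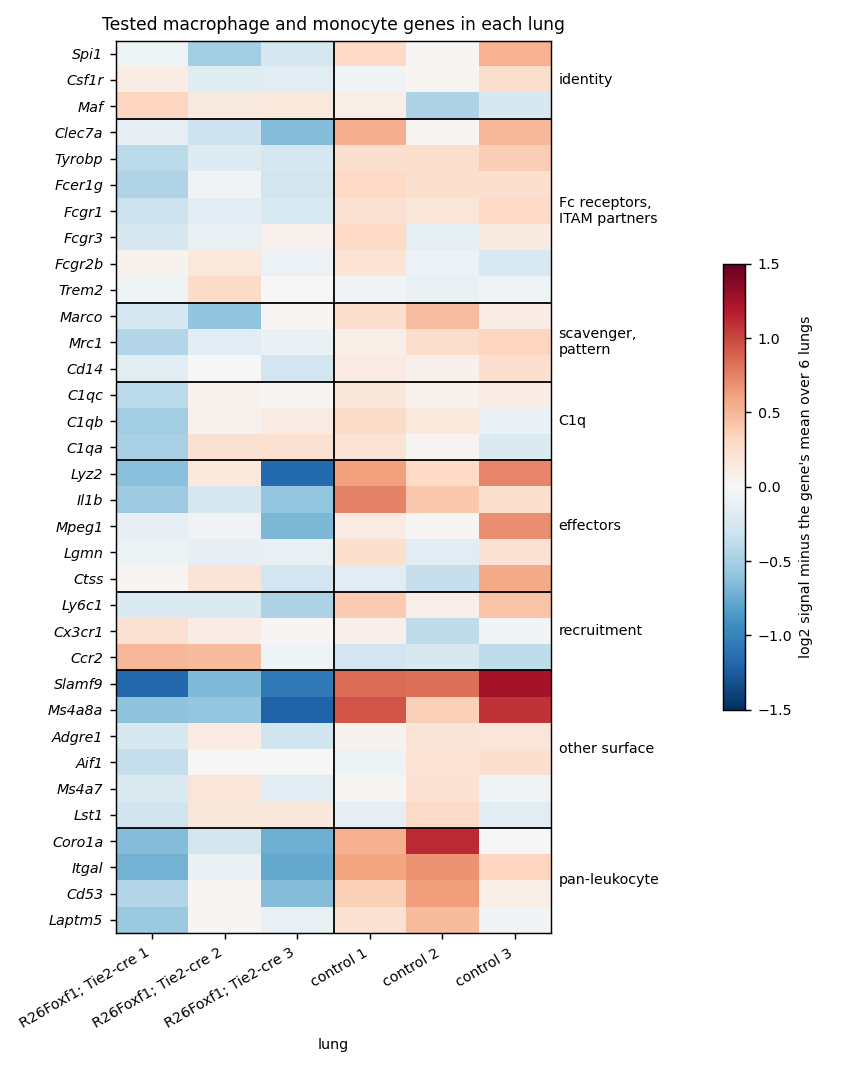
Log2 signal of each of the 34 tested member genes (rows, grouped by role) in each of the 6 lungs (columns, R26Foxf1; Tie2-cre left of control), as the difference from the gene's mean over the 6 lungs. Blue is below and red above that mean, on a scale of −1.5 to 1.5; the 3 control columns are mostly red, and Ccr2, Cx3cr1 and Maf run the other way.

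**Figure D2:**
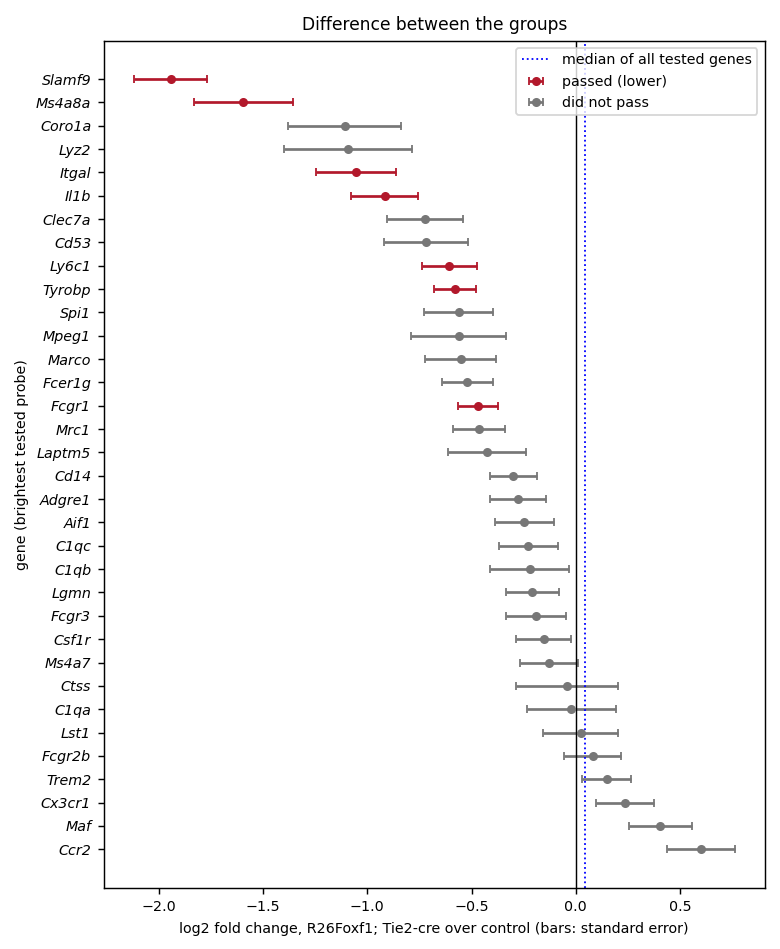
Log2 fold change of each tested member gene (R26Foxf1; Tie2-cre over control) with its standard error, sorted by size, n = 3 lungs per group. The 7 genes in red passed the threshold, all lower; the dotted line is the median of all tested genes, 0.05. Values of Ms4a8a, Il1b and Marco are fitted on probes not detected in R26Foxf1; Tie2-cre lungs and are no bounds.

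Slamf9, a SLAM family receptor of macrophages and dendritic cells, had the largest change among the members detected in both groups. Its log2 signal was 6.44, 6.95 and 6.54 in R26Foxf1; Tie2-cre lungs and 8.45, 8.45 and 8.87 in the control lungs, a gap of over 1 unit between the nearest lungs of the 2 groups. Its mean was 6.64 ± 0.27 in R26Foxf1; Tie2-cre lungs and 8.59 ± 0.24 in control lungs (SD, n = 3 each), 3.85-fold lower (−1.94 ± 0.18 SE in log2 fold change, adjusted p = 0.0105 from limma). It was called in 5 of the 6 fits that left out 1 lung, and not without R26Foxf1; Tie2-cre replicate 3 (adjusted p = 0.0855).

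Ms4a8a encodes a membrane-spanning protein described in tumor-associated and alternatively activated mouse macrophages. It read 5.18, 5.21 and 4.58 in R26Foxf1; Tie2-cre lungs, not detected on any of those arrays, and 6.73, 6.15 and 6.87 in control lungs, all detected. The probe can therefore give only a bound, at least 2.31-fold lower in R26Foxf1; Tie2-cre lungs, and its adjusted p of 0.0308 comes from the fit of a probe that only the control lungs brought past the filter. Such bounds set the mean of the detected group against the lowest detected signal on each array of the other, or the probe's own reading where that is higher. A second Ms4a8a probe, detected in 2 control lungs alone and not tested, had the same direction, at least 1.25-fold. Ms4a7, another gene of this family, had overlapping groups (−0.13 in log2 fold change, adjusted p = 0.602), and Ms4a6c was not detected.

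**Figure D3:**
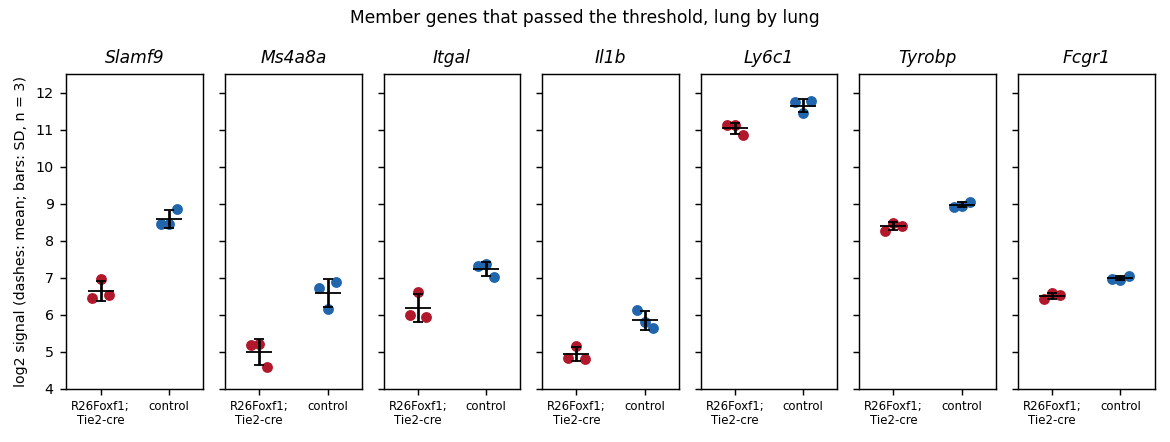
Log2 signal of the 7 member genes that passed the threshold, 1 panel a gene and 1 point a lung, with R26Foxf1; Tie2-cre left of control; dashes are means and bars the SD (n = 3). In every panel the 3 R26Foxf1; Tie2-cre lungs lie below the 3 control lungs, with the widest gap for Slamf9 (means 6.64 and 8.59); levels are not comparable between panels.

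Of 7 Fc receptors and ITAM-linked genes, 2 fell, and the median log2 fold change was −0.47. For 4 of them the groups did not overlap, all lower in R26Foxf1; Tie2-cre lungs. Over all tested genes 1.44% fell, and 10.9% had groups apart in that direction. Tyrobp, the ITAM adaptor of TREM and other myeloid receptors, had 8.27, 8.48 and 8.41 in R26Foxf1; Tie2-cre lungs and 8.92, 8.94 and 9.05 in control lungs. All control lungs lay in a narrow band above the others (−0.58 ± 0.10 SE in log2 fold change, adjusted p = 0.0386). Fcgr1, the high-affinity IgG receptor, had the smallest change of the 5 called members detected in both groups. It had 6.44, 6.60 and 6.52 in R26Foxf1; Tie2-cre lungs and 6.98, 6.93 and 7.05 in control lungs (−0.47 ± 0.10 SE in log2 fold change, adjusted p = 0.0452). This call was lost on the deposited values (adjusted p = 0.0772), with a variance trend (adjusted p = 0.0615) and with the mean of each gene's probes (adjusted p = 0.0606).

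Fcer1g, the common Fc receptor gamma chain through which Fcgr1 signals, missed the threshold. It had 10.35, 10.74 and 10.53 in R26Foxf1; Tie2-cre lungs and 11.10, 11.04 and 11.04 in control lungs (−0.52 in log2 fold change, adjusted p = 0.0550), so the groups did not overlap. Clec7a, the beta-glucan receptor Dectin-1, had 5.95, 5.77 and 5.43 in R26Foxf1; Tie2-cre lungs and 6.62, 6.12 and 6.58 in control lungs (−0.72, adjusted p = 0.0649), and its second probe gave −0.33 (adjusted p = 0.377). The low-affinity IgG receptor Fcgr3 (−0.19, adjusted p = 0.431), the inhibitory receptor Fcgr2b (0.08, adjusted p = 0.750) and Trem2, a lipid-sensing receptor that pairs with Tyrobp (0.15, adjusted p = 0.453), had overlapping groups.

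The identity genes were split. Spi1, which encodes PU.1, had 5.78, 5.32 and 5.57 in R26Foxf1; Tie2-cre lungs, the second of them not detected, and 6.14, 5.86 and 6.36 in control lungs. These groups did not overlap, but the difference did not pass (−0.56 in log2 fold change, adjusted p = 0.0906). Csf1r, the receptor for CSF1 and IL-34, had 7.92, 7.64 and 7.65 in R26Foxf1; Tie2-cre lungs and 7.75, 7.85 and 8.08 in control lungs. Its groups overlapped on this probe (−0.15, adjusted p = 0.487) and on the second (−0.33, adjusted p = 0.334). Maf, a transcription factor of mature tissue macrophages, went the other way with 6.56, 6.38 and 6.40 in R26Foxf1; Tie2-cre lungs and 6.34, 5.78 and 6.00 in control lungs (0.41, adjusted p = 0.147).

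Among 6 scavenger and pattern receptors, 3 were tested and none passed. All 3 were lower in every R26Foxf1; Tie2-cre lung than in any control lung, as were 10.9% of all tested genes. For Marco, 1 of the 3, the detection filter was passed through the control lungs alone, so that a difference was built into its selection. Mrc1, the mannose receptor, had 9.62, 9.90 and 9.96 in R26Foxf1; Tie2-cre lungs and 10.16, 10.32 and 10.38 in control lungs (−0.46, adjusted p = 0.0747). Cd14, the lipopolysaccharide co-receptor, had 8.05, 8.21 and 7.93 in R26Foxf1; Tie2-cre lungs and 8.33, 8.29 and 8.46 in control lungs (−0.30, adjusted p = 0.143). Marco, a scavenger receptor of alveolar macrophages, sat at the limit of detection. It read 4.99, 4.66 and 5.27 in R26Foxf1; Tie2-cre lungs, not detected, and 5.50, 5.71 and 5.36 in control lungs, which allows at least 1.11-fold (adjusted p = 0.0996).

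The 3 chains of complement C1q, which tissue macrophages secrete and which binds immune complexes and dying cells, did not pass the threshold. C1qa had 7.71, 8.42 and 8.42 in R26Foxf1; Tie2-cre lungs and 8.40, 8.23 and 7.98 in control lungs (−0.02 in log2 fold change, adjusted p = 0.960). C1qb (−0.22, adjusted p = 0.493) and C1qc (−0.23, adjusted p = 0.341) were also lowest in R26Foxf1; Tie2-cre replicate 1, at 9.44 and 9.43. The other R26Foxf1; Tie2-cre lungs, at 10.03 and 10.08 for C1qb, stood close to the control lungs, at 10.23, 10.12 and 9.86. C1qc had 9.43, 9.89 and 9.86 in R26Foxf1; Tie2-cre lungs and 10.01, 9.89 and 9.95 in control lungs, groups that did not overlap although their nearest lungs both round to 9.89. The direction of C1qa turned with median scaling of the arrays and without R26Foxf1; Tie2-cre replicate 1 or control replicate 1.

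Of 5 effector genes, 1 fell and all 5 means were lower in R26Foxf1; Tie2-cre lungs, against 1.44% and 42.3% of all tested genes. Il1b, the inflammatory cytokine interleukin-1 beta, read 4.84, 5.15 and 4.81 in R26Foxf1; Tie2-cre lungs, not detected on any of those arrays, and 6.13, 5.80 and 5.63 in control lungs, all detected. This gives at least 1.39-fold lower in R26Foxf1; Tie2-cre lungs (adjusted p = 0.0384), for a probe that passed the filter through the control lungs alone. The call was lost on the deposited values (adjusted p = 0.10), with the looser detection rule (p under 0.05 on 1 array or more, adjusted p = 0.0522) and with the mean of each gene's probes (adjusted p = 0.0543). Lyz2, the lysozyme of myeloid cells that alveolar type 2 cells also make, had 12.57, 13.35 and 12.02 in R26Foxf1; Tie2-cre lungs and 13.80, 13.49 and 13.92 in control lungs. Its groups did not overlap, but R26Foxf1; Tie2-cre replicate 2 came close to the lowest control, and neither this probe (−1.09, standard error 0.31, adjusted p = 0.0816) nor the second (−1.04, adjusted p = 0.107) passed. Mpeg1, the pore-forming perforin-2, had 8.10, 8.17 and 7.55 in R26Foxf1; Tie2-cre lungs and 8.34, 8.25 and 8.93 in control lungs (−0.56, adjusted p = 0.171). The lysosomal proteases Lgmn (−0.21, adjusted p = 0.338) and Ctss (−0.04, adjusted p = 0.930) had overlapping groups.

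The 3 genes of monocyte subsets and their recruitment did not move together. Ly6c1, a surface antigen of the Ly6C family that marks inflammatory monocytes and is also found on endothelium, fell. It had 11.13, 11.12 and 10.86 in R26Foxf1; Tie2-cre lungs and 11.74, 11.44 and 11.76 in control lungs (−0.61 ± 0.13 SE in log2 fold change, adjusted p = 0.0484). The array was not examined for whether this probe also reads the near-identical Ly6c2. Ccr2, the CCL2 receptor that brings monocytes out of the blood, had the highest positive value among the tested members. Its signal was 6.67, 6.65 and 6.11 in R26Foxf1; Tie2-cre lungs and 5.89, 5.94 and 5.79 in control lungs, above all control lungs but not past the threshold (0.60, adjusted p = 0.0733). Cx3cr1, the fractalkine receptor, had 8.89, 8.77 and 8.67 in R26Foxf1; Tie2-cre lungs and 8.73, 8.27 and 8.61 in control lungs (0.24, adjusted p = 0.323).

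The remaining surface proteins were close to level. Adgre1, the macrophage surface marker also called EMR1, had 6.98, 7.35 and 6.92 in R26Foxf1; Tie2-cre lungs and 7.27, 7.41 and 7.40 in control lungs (−0.28, adjusted p = 0.236), and −0.09 on its second probe. Aif1, the cytoskeletal protein IBA1, had −0.25 (adjusted p = 0.313) on its brighter probe and 0.32 (adjusted p = 0.254) on the other, so its direction was not settled. Lst1, a leukocyte transmembrane protein, had 0.02 (adjusted p = 0.947).

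The 6 members taken as shared with lymphocytes were treated separately, because markers of thymocytes and lymphocytes were high in control replicates 1 and 2. The other members were not checked for expression in lymphocytes. Of 22 thymocyte and lymphocyte markers with a probe, 4, 4 and 5 were detected in R26Foxf1; Tie2-cre lungs and 15, 17 and 5 in control replicates 1, 2 and 3. Their mean deviation from the 6-lung mean was −0.71, −0.62 and −0.66 in R26Foxf1; Tie2-cre lungs and 0.92, 1.65 and −0.58 in control lungs, so that control replicate 3 was close to the R26Foxf1; Tie2-cre lungs. The mean deviation took in all 22 markers, detected or not, while 5 were tested and 0 passed by the brightest probe. Of these 5 markers, 3 were lower and 2 were higher by mean. Arpp21, a gene of immature thymocytes, had the largest change. It was not detected in R26Foxf1; Tie2-cre lungs (4.64, 4.88 and 4.58). All control lungs detected Arpp21 (8.90, 10.14 and 6.06), control replicate 3 included. Cd8b1 went the other way with no overlap of the groups (0.32 in log2 fold change), and Cd79b was near level (0.07). Of the 6 shared members, Itgb2 and Ptprc were not detected. Coro1a, an actin regulator of all leukocytes, had 10.34, 10.72 and 10.26 in R26Foxf1; Tie2-cre lungs and 11.53, 12.12 and 11.00 in control lungs, in the same order among controls as the thymocyte markers. It missed the threshold on the brightest of its 4 probes (−1.11 in log2 fold change, adjusted p = 0.0606) and passed it on 2 dimmer ones (−1.26, adjusted p = 0.0457, and −1.56, adjusted p = 0.0388). Counting a gene by any of its probes, 8 members were lower (23.5%, against 2.93% of all genes) and 0 were higher (2.89% of all genes).

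Itgal, the alpha chain of the leukocyte integrin LFA-1, had 6.01, 6.61 and 5.94 in R26Foxf1; Tie2-cre lungs and 7.31, 7.38 and 7.03 in control lungs (−1.05 ± 0.19 SE in log2 fold change, adjusted p = 0.0404). With the thymocyte level as a covariate it did not pass (−0.83, adjusted p = 0.118). Cd53, a leukocyte tetraspanin, had 5.45, 5.92 and 5.24 in R26Foxf1; Tie2-cre lungs and 6.25, 6.52 and 6.00 in control lungs (−0.72, adjusted p = 0.0815). Laptm5, a lysosomal protein of hematopoietic cells, had overlapping groups (−0.43, adjusted p = 0.201). The 4 tested shared members had a median of −0.89, which was −0.51 against control replicate 3 alone and −0.44 with the thymocyte level as a covariate. The 30 other tested members had a median of −0.26, which was −0.38 in both of those fits. Of these 30, 6 fell, against 1.44% of all tested genes. Ms4a8a and Il1b are among the 6, and Marco among the 30. These genes passed the detection filter through the control lungs alone.

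**Figure D4:**
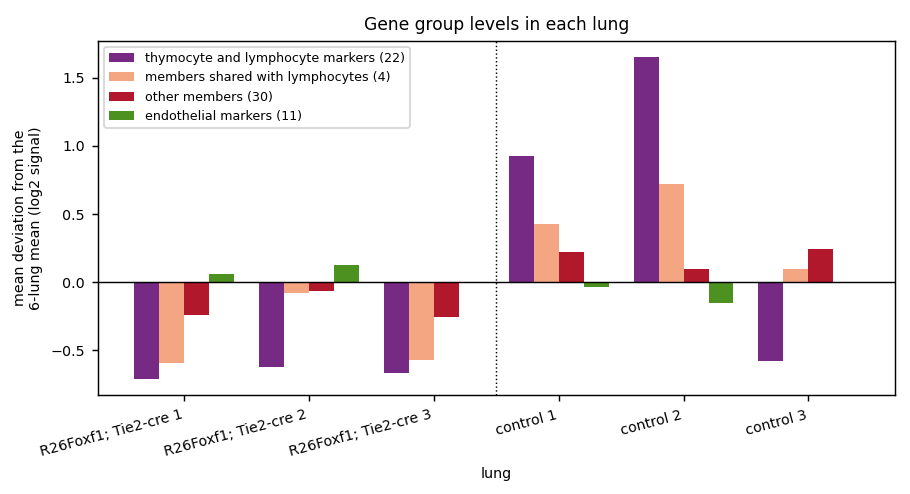
Mean deviation from the 6-lung mean (log2 signal) of 4 gene groups in each lung, with the number of genes in brackets. Thymocyte and lymphocyte markers are above the mean only in control replicates 1 and 2 (0.92 and 1.65). The other members are above the mean in all 3 control lungs (0.22, 0.09 and 0.24). They are below it in all 3 R26Foxf1; Tie2-cre lungs (−0.24, −0.06 and −0.25). These other members were not checked for expression in lymphocytes.

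With the thymocyte level as a covariate, Slamf9 (−2.20 in log2 fold change, adjusted p = 0.0232) passed, as did the fit of Ms4a8a, which was not detected in R26Foxf1; Tie2-cre lungs, and the other 5 called members did not. In that fit 892 of all 20118 tested probes passed, against 908 without the covariate. Control replicate 3 is the 1 control lung in it with a low level of these markers. Without both control replicates 1 and 2, 1 control lung was left, whose spread cannot be measured. The members' median log2 fold change was then −0.39. The count of 7 also moved with single lungs. The count lower was 1, 5 and 0 without R26Foxf1; Tie2-cre replicate 1, 2 and 3, and 1, 9 and 1 without control replicate 1, 2 and 3. Calls over all tested probes moved in the same fits, from 908 to 17, 358 and 2, and to 17, 1704 and 92. Of the 6 fits with 1 lung left out, Slamf9 was called in 5, Itgal, Ms4a8a and Il1b in 2 (without R26Foxf1; Tie2-cre replicate 2 and without control replicate 2), and Tyrobp, Fcgr1 and Ly6c1 in 1 (without control replicate 2). Their highest adjusted p in those fits was 0.0855 for Slamf9 and lay between 0.118 and 0.154 for the others.

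The lungs differed within the groups as well. Averaged over the 34 tested members, the deviation from the 6-lung mean was −0.28, −0.06 and −0.29 in R26Foxf1; Tie2-cre lungs and 0.24, 0.17 and 0.22 in the control lungs. R26Foxf1; Tie2-cre replicate 2 was thus the nearest to the controls. For neutrophil markers the lowest lung was R26Foxf1; Tie2-cre replicate 3, with a mean deviation of −0.27, 0.28 and −1.0 in R26Foxf1; Tie2-cre lungs and 0.16, 0.24 and 0.58 in control lungs, and 0 of 10 were called. Their median was −0.83, with 9 of 10 means lower in R26Foxf1; Tie2-cre lungs and 4 genes whose groups did not overlap, all lower. Over all tested genes 42.3% of means were lower, and 10.9% had groups apart in that direction. Lyz2 and Mpeg1, which neutrophils or monocytes also express, were likewise lowest in R26Foxf1; Tie2-cre replicate 3. This was not particular to them, as Cd14, Ly6c1, Itgal and Coro1a were lowest in that lung too. Tyrobp, Fcgr1 and the C1q genes were lowest in R26Foxf1; Tie2-cre replicate 1. Of 10 pan-leukocyte genes outside the list, 3 fell (Was, Cytip and Fermt3), against 1.44% of all tested genes, with a median of −0.86. All 10 were lower in every R26Foxf1; Tie2-cre lung than in any control lung, against 10.9% of all tested genes. Their mean deviation was −0.42, −0.38 and −0.43 in R26Foxf1; Tie2-cre lungs and 0.44, 0.77 and 0.03 in control lungs. The controls thus stood in the same order as for the thymocyte markers. Endothelial, epithelial and mesenchymal markers had medians of 0.12, −0.09 and −0.07, with 0 called among 11, 11 and 12 genes. The part of these other cell types in the members' values was not tested.

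Of 84 tested genes in 8 related groups outside the members, also drawn up with results of these lungs known, 9 fell (10.7%) and 2 rose (2.38%), against 1.44% and 1.54% of all tested genes. Of these calls F7, Il1rn, Trem3 and Siglech were detected in 1 group alone and passed the filter through it. Among the 72 related genes detected on all 6 arrays, 6 fell and 1 rose. The alveolar macrophage genes had the lowest median, −0.65, with 4 of 10 fallen and no mean higher in R26Foxf1; Tie2-cre lungs. Mcemp1, a membrane protein of mast cells and macrophages, had 6.56, 6.40 and 6.49 in R26Foxf1; Tie2-cre lungs and 8.02, 7.86 and 8.13 in control lungs (−1.52 in log2 fold change, adjusted p = 0.00470). Ear10, a ribonuclease of the eosinophil-associated family, followed (−1.51, adjusted p = 0.0184). F7, coagulation factor VII, was not detected in any R26Foxf1; Tie2-cre lung (4.76, 4.99 and 4.87) and was detected in all control lungs (6.20, 6.06 and 6.65), at least 1.9-fold lower in R26Foxf1; Tie2-cre lungs (adjusted p = 0.0217). Pparg, the nuclear receptor that alveolar macrophages need to mature and that other lung cells also express, had 7.92, 7.34 and 8.0 in R26Foxf1; Tie2-cre lungs and 8.89, 8.65 and 8.86 in control lungs (−1.05, adjusted p = 0.0386).

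Over all tested genes 1.44% fell and 1.54% rose, the shares beside which the next counts stand. Of 11 chemokines and cytokines 3 fell: Ccl6 (−1.21, adjusted p = 0.0372), Il18 (−0.81, adjusted p = 0.0498) and the interleukin-1 receptor antagonist Il1rn. The last was not detected in R26Foxf1; Tie2-cre lungs (at least 1.23-fold lower, adjusted p = 0.0426). Like Trem3 and Siglech below, Il1rn passed the filter through the group where it is high. Of 14 genes of ITAM and ITIM signalling 2 fell, the inhibitory receptor Cd33 (−0.89, adjusted p = 0.0431) and Trem3, a Tyrobp-linked receptor not detected in R26Foxf1; Tie2-cre lungs (at least 1.46-fold lower, adjusted p = 0.0294). The group's median was −0.55, and 8 of its genes were lower in every R26Foxf1; Tie2-cre lung than in any control lung, as were 10.9% of all tested genes. Of 10 myeloid transcription factors 1 rose: Zeb2, also a mesenchymal factor, had 11.42, 11.47 and 11.51 in R26Foxf1; Tie2-cre lungs and 10.82, 10.86 and 10.62 in control lungs (0.70, adjusted p = 0.0297). Among 11 class II and dendritic cell genes Siglech, a receptor of plasmacytoid dendritic cells, rose. It had 5.73, 6.13 and 6.35 in R26Foxf1; Tie2-cre lungs and was not detected in control lungs (5.27, 5.24 and 4.87), at least 1.65-fold higher in R26Foxf1; Tie2-cre lungs (adjusted p = 0.0431).

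In the 3 other groups no brightest probe passed. The CSF1 and CSF2 axis (6 genes) had a median of −0.11, with the largest change in Csf2rb, the shared receptor chain for GM-CSF (−0.57, adjusted p = 0.0701). The ligands Csf1 (0.16) and Il34 (−0.24) had adjusted p values of 0.373 and 0.328. Complement receptors and clearance genes (6 genes) had a median of −0.02, and Mertk, the receptor for dying cells, stood at −0.07 (adjusted p = 0.762). The 16 lysosome genes, which most cells of the lung express, had a median of 0.04. Before adjustment, at p under 0.05 and the same fold limit, 1 lysosome gene was lower and 1 was higher.

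**Figure D5:**
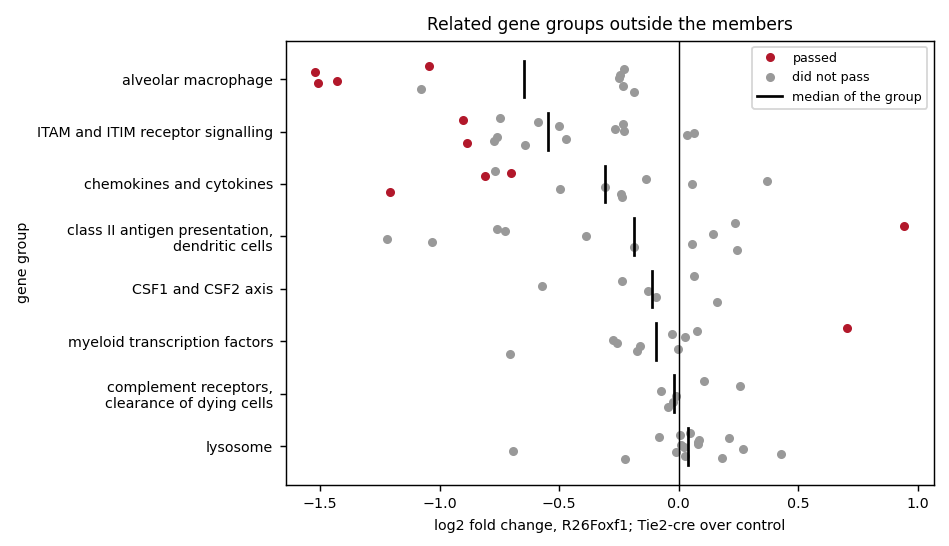
Log2 fold change (R26Foxf1; Tie2-cre over control) of the 84 tested genes in 8 related gene groups, 1 point a gene, with the vertical bar at each group's median. Points that passed the threshold are red, 9 on the lower side, 4 of them alveolar macrophage genes, and 2 on the higher side; lysosome genes lie around 0.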

How the data were processed

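A single BeadChip array per lung was used, 3 for R26Foxf1; Tie2-cre embryos and 3 for R26-LSL-Foxf1 embryos at E18.5. The authors deposited a background-subtracted intensity for each of 45281 probes, scaled to a common mean per array, with a detection p-value. The authors deposited a second table of variance-stabilized, spline-normalized values on a log2 scale, used here as an alternative. The intensities were corrected with nec in limma 3.58.1 (R 4.3.3), with negative controls inferred from the detection p-value and an offset of 16, then set on the log2 scale and brought to common quantiles. Tests took those probes that at least 3 arrays detected (p under 0.01), by lmFit and eBayes with Benjamini-Hochberg adjustment. The study's thresholds were kept, and its t-test was an alternative. Symbols came from the platform annotation, updated by gene ID (GRCm38.p6). The code was tested on simulated data. The members and the gene lists were chosen with earlier results of these data known, and lists carry no test. Named genes were all members, and, from each related list, up to 3 genes past the threshold in each direction or up to 2 with the largest change. Alternatives covered background, normalization, filter, moderation, threshold, block, probe choice, covariate and lungs left out. The number of lungs limits the precision, and chip or litter was not given in the sources used here.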

Additional observations from a re-analysis of the deposited data

Results flagged for a closer look

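Cd163, the hemoglobin scavenger receptor of tissue macrophages, was left out of the tests because its probe was detected on 2 arrays alone, both of R26Foxf1; Tie2-cre lungs, and it stood above the level of the control lungs. Its log2 signal was 5.05, 5.96 and 6.29 in R26Foxf1; Tie2-cre lungs (mean 5.77) and 4.67, 4.70 and 4.80 in control lungs (mean 4.72), none of which was detected. The difference was at least 1.34-fold with 2 of 3 R26Foxf1; Tie2-cre lungs detected, and was not tested. The second Cd163 probe was not detected on any array.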

How the results depend on the processing

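The 7 members called lower were 1 with no filter on dim probes, 2 with the looser detection rule (p under 0.05, 1 array or more), 13 with array weights, 15 at an adjusted p under 0.1, 17 at an unadjusted p, 3 with the mean of a gene's probes, 0 without both control replicates 1 and 2 and 2 with the thymocyte level as a covariate. Leaving out 1 lung gave 0 to 9. Counted by any probe and in either direction, the 8 became 1, 2, 14, 16, 19 and 2 in the same settings. The probe mean and the fit without both control replicates are left out of that series. With 1 lung left out, the count by any probe was 0 to 10. Members called higher were 1 with array weights and at an adjusted p under 0.1, and 2 at an unadjusted p. The methods' t-test called 0 of all probes on either table after adjustment.

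The 908 probes called in all became 58 with no filter, 250 with the looser detection, 1864 with a variance trend, 2491 with array weights, 2680 at an adjusted p under 0.1, 5011 at an unadjusted p, 92 genes with the mean of probes, 0 without both control replicates, and 2 to 1704 with 1 lung left out. Related genes lower, 9, became 2 with no filter, 5 with the looser detection, 15, 16 and 24 with array weights, an adjusted p under 0.1 and an unadjusted p, 4 with the mean of probes, 0 without both control replicates and 0 to 12 with 1 lung left out. Related genes higher, 2, became 1 with either other detection rule, 0 with no filter, the mean of probes and without both control replicates, and 0 to 2 with 1 lung left out.

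The members' median of −0.36 was −0.17 on the deposited values, −0.23 with no filter and −0.26 with detection on all 6 arrays. That of members shared with lymphocytes was −0.40 on the deposited values, −0.51 without both control replicates and −0.44 with the covariate, and that of the others −0.15, −0.38 and −0.38. Median scaling moved the median of all probes to 0.10, and the share of calls that were higher to 61.7%, against 53.7%. C1qa turned to 0.00091 on the deposited values, 0.054 with median scaling, 0.20 without both control replicates, 0.18 with the covariate, and was −0.14 to 0.22 with 1 lung left out. Lst1 turned to −0.0086 with cyclic loess, Fcgr2b to −0.038 and Ctss to 0.019 with array weights, Aif1 to 0.037 with the mean of probes and Ms4a7 to 0.028 with the covariate; with 1 lung left out Lst1 was −0.056 to 0.18, Fcgr2b −0.017 to 0.20 and Ctss −0.22 to 0.23. The cause was not tested.

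With the replicate number as a block, 46 probes, 1 member gene lower (1 by any probe), and 2 related genes lower and 0 higher were called. Deviations of lungs with the same number correlated by 0.29, −0.04 and −0.03. R26Foxf1; Tie2-cre replicate 1 correlated best with its own number, and replicates 2 and 3 did not. With 3 lungs a group these correlations cannot exclude pairs. The labels name no pairs, so the main fit took none. The number of lungs, and signals near background for Il1b, Ms4a8a, Marco and Spi1, limit these values.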

Other observations

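Among 10 neutrophil and 6 eosinophil and mast cell markers outside the macrophage groups, 1 passed the threshold. Ear3, a ribonuclease gene of the eosinophil-associated family, fell (log2 fold change −2.03, adjusted p = 0.00478 from limma). It had 9.92, 9.48 and 9.66 in R26Foxf1; Tie2-cre lungs and 11.72, 11.50 and 11.92 in control lungs. Ear10 of the same family was placed above with the alveolar macrophage genes. Whether the Ear3 probe also reads other genes of the family was not checked. Epx, Prg2, Prg3, Il5ra and Ccr3, eosinophil genes of the same list, were not tested. The mast cell protease genes Cpa3 and Cma1 had overlapping groups, with log2 fold changes of −0.06 (adjusted p = 0.930) and 0.02 (adjusted p = 0.978), and both were highest in R26Foxf1; Tie2-cre replicate 2 (8.83 and 8.31). Kit, from the same marker list, was higher in every R26Foxf1; Tie2-cre lung than in any control lung (0.26, adjusted p = 0.203), as were 18.5% of all tested genes. S100a8, a calcium-binding protein of neutrophils and monocytes, had 11.08, 11.50 and 10.33 in R26Foxf1; Tie2-cre lungs and 11.98, 11.91 and 12.36 in control lungs, without passing the threshold (−1.12, adjusted p = 0.0645). H2-Ab1, a class II antigen presentation gene whose groups overlapped, had 7.85, 8.66 and 8.33 in R26Foxf1; Tie2-cre lungs and 9.80, 10.56 and 8.15 in control replicates 1, 2 and 3.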
